A study of Mus musculus with 219 samples.

Results

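RNA of 10 genes of egg activation and calcium signalling was followed after activation: Itpr1, Atp2a2, Atp2b1, Trpm7, Cacna1h, Orai1, Stim1, Camk2g, Wee2 and Fbxo43. They were taken by name for their known role at fertilization, with earlier results of these data known. All 10 were among the 32285 genes of both count tables. In 2-cell embryos 9 of the 10 genes passed no test between sites of sperm injection. The other, Atp2a2, was lower after ipsilateral than after equatorial injection, a call lost under 5 of 9 other ways of processing. Of all genes, 13.2% were called in contralateral against equatorial embryos, 6.65% in ipsilateral against equatorial and 0% between contralateral and ipsilateral. Between the 2-cell stage and the intact blastocyst 6 genes fell and 3 rose, relative to the other RNA of the library. Of all genes, 84.9% were called there, 49.1% lower and 35.7% higher. Of the 3 that rose, Atp2b1 lost its call with depth as a covariate and Trpm7 in plate 2 alone. Wee2 went from the highest of the 10 in 2-cell embryos to a single read over 31 intact blastocysts, and Stim1 rose from the lowest level.

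The sperm brings a phospholipase C that makes inositol trisphosphate (IP3) in the egg, and IP3 opens the IP3 receptor in the endoplasmic reticulum. Calcium is then released in repeated waves, the first of which starts near the sperm. Pumps return calcium to the store or out of the cell, and channels of the plasma membrane refill it between waves. The calcium signal acts through CaMKII, which leads to the loss of Emi2 and activates Wee1B, and the egg leaves its arrest in metaphase of the second meiotic division.

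The samples were mouse embryos from B6C3F1 oocytes that received CD1 sperm by intracytoplasmic sperm injection (ICSI), and were cultured in KSOM with amino acids. The sperm was placed opposite the meiotic spindle (contralateral), next to it (ipsilateral) or about midway (equatorial), so the equatorial embryos are an injected reference and no uninjected group was sequenced. One experiment separated the 2 blastomeres at the 2-cell stage and sequenced each one, and the added counts of sister blastomeres give 21 contralateral, 21 ipsilateral and 13 equatorial embryos. In the other, separated blastomeres grew singly into twin blastocysts (6, 7 and 6 pairs, in the same order of sites) beside undivided, intact blastocysts (11, 8 and 12), and both kinds were sequenced whole. A blastocyst is a mixture of cell types, and fewer cells of a type cannot be told apart there from less RNA per cell. Embryos had individual numbers, but the labels do not say which came from the same female or day, so p-values measure the spread between these embryos.

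Totals per embryo were 1255481 to 3976094 counts at the 2-cell stage, 1676976 to 3095134 in twin pairs and 234099 to 1254428 in intact blastocysts. Every intact blastocyst was therefore shallower than every twin pair and every 2-cell embryo. Mean totals were 2.58e+06 in contralateral, 3.02e+06 in ipsilateral and 2.29e+06 in equatorial 2-cell embryos. Their single blastomeres had on average 12020, 12080 and 11460 detected genes in the same order. The 6 oocyte and 2-cell markers all had counts at the 2-cell stage, summing to 3174 to 4870 counts scaled to library size (CPM). The 7 blastocyst markers all had counts in both kinds of blastocyst, summing to 3051 to 3633 CPM in twins and 2502 to 5204 CPM in intact ones. Cumulus cell markers summed to at most 59.7 CPM at the 2-cell stage, with 6 of 8 at a median of 0.

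Levels were compared between genes only as TPM, transcript abundance scaled by gene length and library size. In the 55 2-cell embryos, Wee2, the oocyte kinase Wee1B that holds Cdk1 inactive, had the highest TPM of the 10 genes, with a median of 853 (630 to 1031). It lay above Atp2a2, the SERCA2 pump of the endoplasmic reticulum (median 194 TPM), in all 55 embryos, and their ranges did not overlap. Fbxo43, which encodes Emi2, the inhibitor of the anaphase-promoting complex in the arrested egg, followed at a median of 152 TPM.
The 4 genes after these were not separated by their spread. Camk2g, the CaMKII subunit used in mouse egg activation, had a median of 40.8 TPM, Trpm7, a channel and kinase for divalent cations, 36.5, Orai1, the plasma membrane channel of store-operated entry, 36.2, and Itpr1, the type 1 IP3 receptor, 32.4. Each was above the next in 34, 32 and 31 of 55 embryos. Atp2b1, a calcium pump of the plasma membrane, had 21.9 TPM, Cacna1h, a T-type voltage-gated calcium channel, 9.02 TPM, and Stim1, the calcium sensor of the endoplasmic reticulum that opens Orai1, 0.996 TPM, with no read in 14 of 55 embryos.

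The promoter windows of the genes at both ends of this order are shown because Wee2 and Stim1 also moved in opposite directions with stage. Each is the 250 bases before the RefSeq gene start (GRCm38.p6), 5′ to 3′ on the plus strand, with every CG dinucleotide in capitals. The Wee2 window lies at chr6:40442613-40442862 and that of Stim1 at chr7:102267569-102267818. In the GENCODE annotation Wee2 runs from 40439088 to 40466813, so its window lies inside the gene there. The Stim1 window reaches the GENCODE start of Stim1 at 102267806. Which start these embryos used was not tested.
Wee2: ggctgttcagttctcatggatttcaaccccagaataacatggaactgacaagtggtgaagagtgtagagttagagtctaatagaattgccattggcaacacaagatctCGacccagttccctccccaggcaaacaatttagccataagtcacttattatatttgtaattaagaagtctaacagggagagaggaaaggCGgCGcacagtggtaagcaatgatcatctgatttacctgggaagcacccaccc
Stim1: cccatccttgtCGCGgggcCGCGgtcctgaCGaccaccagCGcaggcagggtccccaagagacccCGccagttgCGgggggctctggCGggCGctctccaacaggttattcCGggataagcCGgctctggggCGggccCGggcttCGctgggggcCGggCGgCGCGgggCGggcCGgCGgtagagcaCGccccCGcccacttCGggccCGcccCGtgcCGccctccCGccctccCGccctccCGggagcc
Of the 10 genes, 5 matched an entry, Atp2b1 with 2 starts. Those without an entry, Itpr1, Atp2a2, Cacna1h, Camk2g and Fbxo43, all fell with stage, so Wee2 was the only gene that fell with a window. A link between CG number and stage was not tested. The Wee2 window held 3 CG dinucleotides and 44.4% G and C, whereas the windows of Trpm7, Orai1 and Stim1 held 26, 30 and 31, and those of Atp2b1 43 and 41. The median over 32851 promoters was 6. Of these, 37.8% held at most the number in Wee2 and 95.4% at most that in Stim1.

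The paper separated the blastomeres on the day after injection, once the zygote had divided, and had seen pronuclei well before that. Levels here are therefore of RNA present after egg activation, and RNA of the activating egg was not measured. Although calcium itself was not measured, the site of injection was compared first, since the first of the calcium waves starts near the sperm. Itpr1, the channel through which they run, did not pass between any of the 3 sites: its lowest, median and highest CPM were 122.1, 176 and 238 in contralateral, 87.9, 178 and 268 in ipsilateral, and 100.6, 182 and 308 in equatorial embryos. The groups overlapped over most of their range. The log2 fold change against equatorial embryos was −0.19 (95% interval −0.43 to 0.04, adjusted p = 0.318) after contralateral and −0.17 (−0.41 to 0.08, adjusted p = 0.505) after ipsilateral injection.

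Among the pumps, Atp2a2 ran from 238.5 to 507 CPM in contralateral embryos (median 354), from 216 to 415 CPM in ipsilateral embryos (median 334) and from 265 to 624.5 CPM in equatorial embryos (median 392). The ranges overlapped, but 17 of 21 ipsilateral embryos lay under the equatorial median and 4 under every equatorial embryo. The share of all genes placed this way was not counted. Atp2a2 fell by 0.33 on the log2 scale in ipsilateral against equatorial embryos (log2 fold change −0.33, SE 0.11, adjusted p = 0.0470). This was the only one of the 10 genes called in that comparison, where 6.65% of 13141 genes were called and 3.22% were called lower. Of 9 alternatives, 4 kept the call, with adjusted p from 0.0135 to 0.329, and the log2 fold change stayed between −0.37 and −0.24. It was −0.24 with depth as a covariate (adjusted p = 0.329). Within plate 1 the medians were 342 CPM in 13 ipsilateral and 392 CPM in 11 equatorial embryos (adjusted p = 0.0548 in the fit of plate 1), and within plate 2, with 8 and 2 embryos, 331 and 338 CPM. Against contralateral embryos, ipsilateral Atp2a2 did not pass either (log2 fold change 0.16 for contralateral against ipsilateral, adjusted p = 1).
Atp2b1 had medians of 90.02, 96.5 and 112 CPM after contralateral, ipsilateral and equatorial injection, with overlapping ranges and log2 fold changes against equatorial embryos of −0.29 (SE 0.19) and −0.19 (SE 0.20).

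Among the channels of calcium entry and their sensor, Cacna1h ranged from 2.21 to 67.8 CPM in contralateral (median 22.4), 5.61 to 75.8 in ipsilateral (median 23.2) and 17.6 to 65.3 in equatorial embryos (median 47.8). Of the 21 contralateral embryos 19 lay under the equatorial median, and of the 21 ipsilateral embryos 18. The share of all genes placed this way was not counted. The log2 fold changes were −0.69 (SE 0.31) and −0.58 (SE 0.32), and neither passed after adjustment (adjusted p = 0.132 and 0.327). Within plate 1 the medians were 21.6, 22.6 and 48.6 CPM in contralateral, ipsilateral and equatorial embryos. Within plate 2, with 3, 8 and 2 embryos, they were 38.5, 32.4 and 24.3 CPM.
Orai1 ranged from 3.54 to 81.2 CPM in contralateral (median 19.4), from 0 to 101.5 in ipsilateral (median 27.8) and from 1.32 to 73.4 in equatorial embryos (median 51.4). Stim1 medians were 2.85, 2.67 and 8.87 CPM in the same order, with maxima of 16.8, 23.7 and 29.96 CPM and minima of 0. For both genes the ranges overlapped, and no difference was detectable: the log2 fold changes of contralateral against equatorial embryos were −0.79 (−1.60 to 0.01) for Orai1 and −1.38 (−2.96 to 0.20) for Stim1.
Trpm7 had medians of 115.6, 135 and 118.3 CPM with overlapping ranges (85.01 to 277 CPM over all 55 embryos), and log2 fold changes against equatorial embryos of −0.09 and 0.14 (SE 0.14 and 0.15).

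Among the meiotic exit genes, Wee2 ranged from 536 to 1034 CPM in contralateral (median 829.01), 708 to 975 in ipsilateral (median 836) and 616.5 to 901 in equatorial embryos (median 769), and the groups overlapped. The log2 fold change had the narrowest 95% intervals of the 10 genes and was 0.08 (−0.05 to 0.20) for contralateral and 0.12 (−0.01 to 0.25) for ipsilateral against equatorial embryos, with adjusted p = 0.524 and 0.314. Fbxo43 had medians of 202, 185 and 181 CPM, with 1 equatorial embryo at 52.4 CPM below all others, and log2 fold changes of 0.11 and 0.15 (SE 0.13 and 0.14). Camk2g ranged from 34 to 169 CPM (median 87.9), 40.7 to 119.6 CPM (median 77.85) and 24.8 to 159 CPM (median 70.75) after contralateral, ipsilateral and equatorial injection, and did not pass in any comparison.

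**Figure D1:**
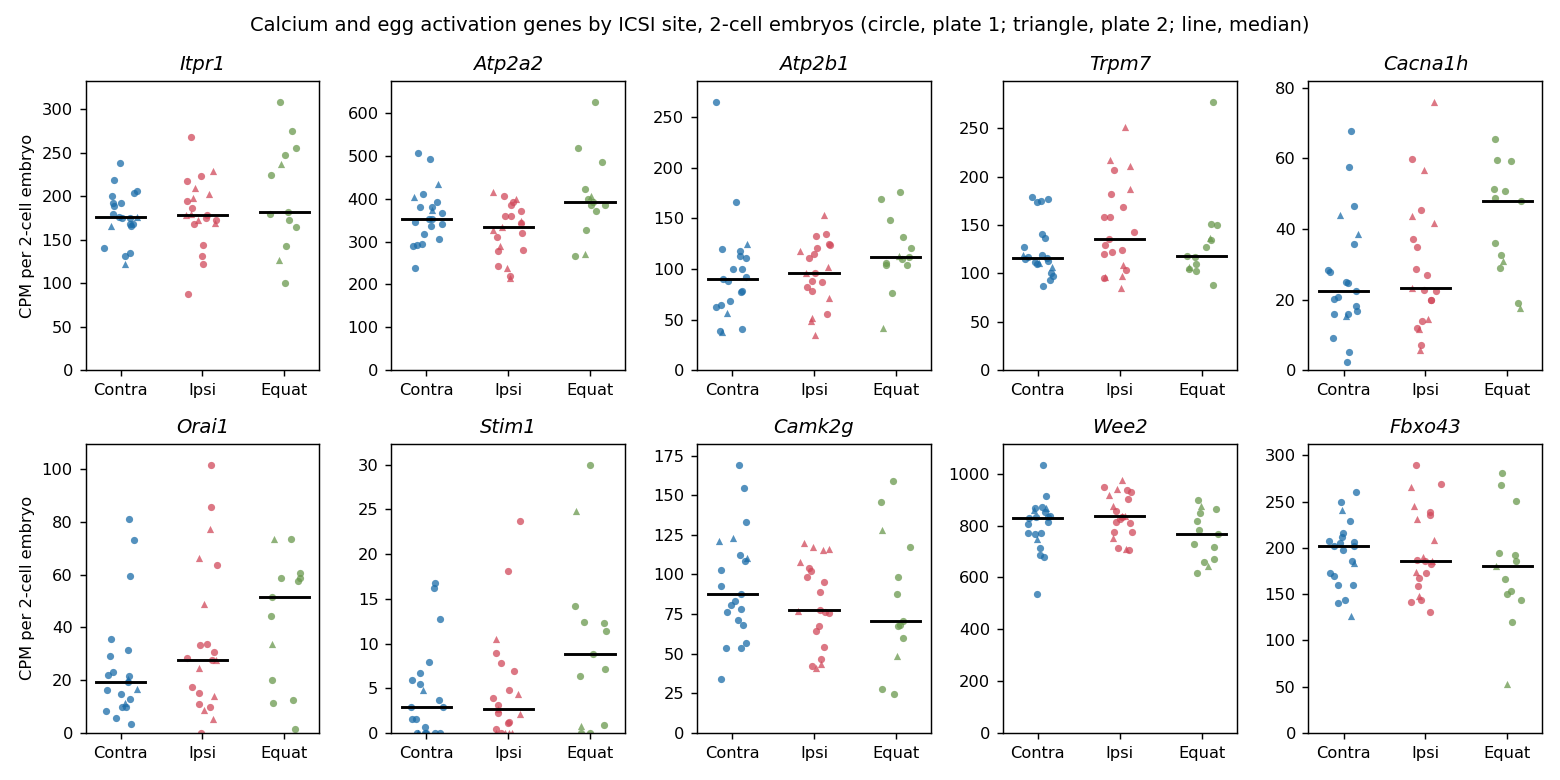
CPM of the 10 genes in each of 55 2-cell embryos (sister counts added) by site of injection, with circles for plate 1, triangles for plate 2 and a line at the group median. The groups overlap for every gene. Cacna1h, which was not called, has an equatorial median of 47.8 CPM against 22.4 and 23.2 CPM at the other sites. In the few embryos of plate 2 its equatorial median is the lowest.

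In the contralateral against equatorial comparison edgeR called 0 of the 10 genes (1 unadjusted, Cacna1h, and 0 by DESeq2), where 13.2% of all genes were called. Between contralateral and ipsilateral embryos it called 0 of 10 (0 unadjusted, 0 by DESeq2), with 0% of all genes called. The median log2 fold change of the 10 genes was −0.18, −0.18 and −0.07 in contralateral against equatorial, ipsilateral against equatorial and contralateral against ipsilateral embryos, beside −0.00, 0.01 and 0.00 over all genes. The first pair of comparisons shares the equatorial embryos, so their values are not independent.

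**Figure D2:**
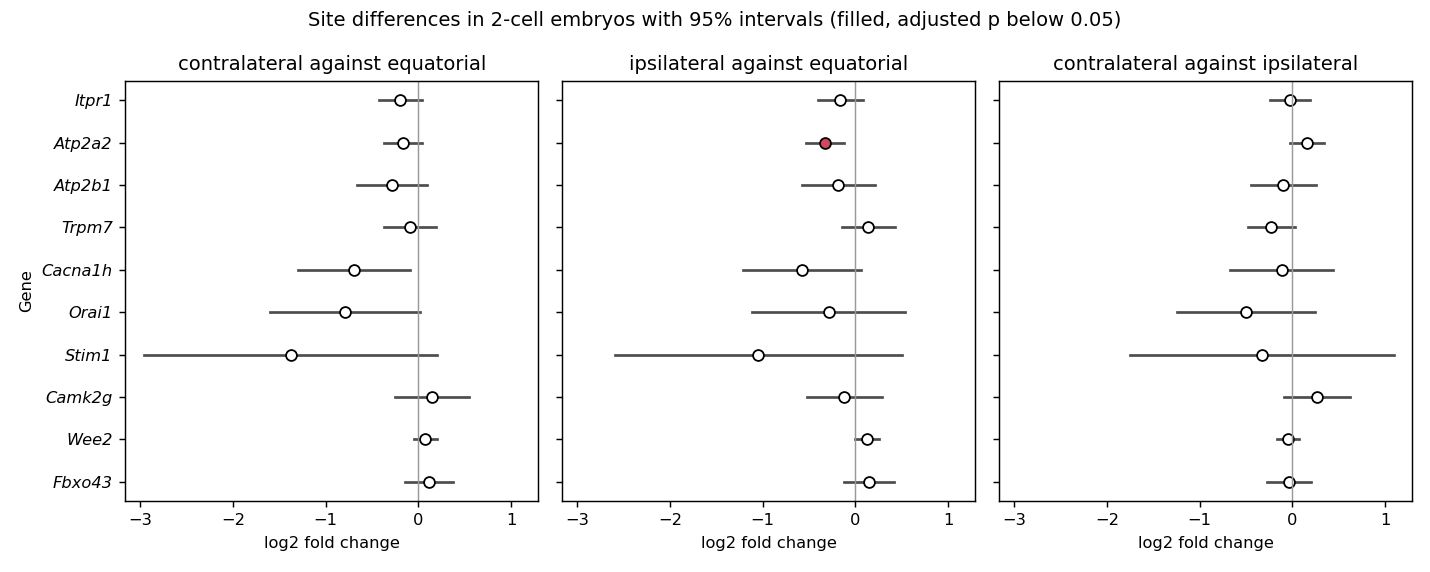
Log2 fold change of each gene between sites in 2-cell embryos from edgeR, with a 95% interval worked out from the F statistic. A filled point marks an adjusted p under 0.05. Atp2a2 in ipsilateral against equatorial embryos is the single filled point at −0.33, and the intervals of Stim1 and Orai1 are the widest.

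Other genes of the pathway came from 8 lists with 85 genes, chosen beside the 10. Of 61 tested, 1 was higher and 4 were lower in contralateral against equatorial embryos, 2 higher and 2 lower in ipsilateral against equatorial, and 0 passed between contralateral and ipsilateral, beside 13.2%, 6.65% and 0% of all genes. The list medians were −0.10, −0.04 and −0.06 on the log2 scale. Calm2, which encodes calmodulin, was higher after contralateral injection (log2 fold change 0.38, SE 0.09, adjusted p = 0.00286), at a median of 639 against 481 CPM. Calr, the main calcium buffer inside the endoplasmic reticulum, was lower (−0.58, SE 0.14, adjusted p = 0.00269), at 186 against 259.6 CPM, and so was Sdf4, a calcium-binding protein of the Golgi (−0.66, SE 0.19, adjusted p = 0.0111). After ipsilateral injection the 3 with the smallest adjusted p were Canx, a chaperone of the endoplasmic reticulum membrane (−0.36, adjusted p = 0.0170), Mcub, a subunit of the mitochondrial calcium uniporter (0.71, adjusted p = 0.0208), and Fzr1, an activator of the anaphase-promoting complex (−0.69, adjusted p = 0.0429). Calm2 was also called higher after ipsilateral injection, and Canx lower after contralateral injection (−0.31), both against the same equatorial embryos. Plcz1, the phospholipase that the sperm brings, had no read in any 2-cell embryo.

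How evenly these transcripts were shared between sisters was measured as the absolute log2 ratio of sister levels, on log2(CPM + 1). Wee2 was the most even of the 10, with a median of 0.11 over 55 pairs, a ratio of 1.082, and 4.31% of genes had a lower median. Atp2a2 followed at 0.27, Itpr1 at 0.37 and Fbxo43 at 0.41, all below the median over 13141 genes of 0.87.
Trpm7 (0.58), Atp2b1 (0.62) and Camk2g (0.66) were intermediate, and Cacna1h (0.89), Stim1 (0.95) and Orai1 (1.05) lay above that median. Stim1 had a read in only 1 sister in 21 pairs and in neither in 14, and Orai1 in only 1 sister in 7 pairs. Pairs with no read in either sister count as even. These 3 genes also had the fewest reads of the 10, with medians of 73, 9 and 70 per 2-cell embryo for Cacna1h, Stim1 and Orai1. Wee2, Atp2a2, Itpr1 and Fbxo43 had the most, with medians of 2134, 957, 498 and 478 reads. The median over all genes was not matched for read number, so even sharing was not separated here from counting depth.

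No difference in this sharing between sites was detectable. For Atp2b1, a median of 0.94 in contralateral, 0.61 in ipsilateral and 0.31 in equatorial pairs gave a difference of 0.45 (SE 0.23) between contralateral and equatorial pairs by limma, which did not pass (adjusted p = 0.481). Fbxo43 in ipsilateral against equatorial pairs differed by −0.29 (SE 0.14, adjusted p = 0.415). limma called 0 of 10 genes in each comparison (1 unadjusted in each comparison with the equatorial site and 0 between the other sites, with 0.259%, 0.221% and 0% of all genes called).

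Sisters were also compared with blastomeres of other embryos. The intraclass correlation, the share of variance lying between embryos within a site and plate, was 0.44 for Orai1 (adjusted p = 0.00537, F test over 55 pairs), 0.40 for Atp2a2 (adjusted p = 0.0136), 0.34 for Wee2 (adjusted p = 0.0377) and 0.33 for Camk2g (adjusted p = 0.0448). These 4 of 10 genes passed where 16.6% of all genes did. The others lay between −0.03 (Trpm7) and 0.20 (Stim1) and did not pass. Orai1 had the highest intraclass correlation of the 10, while its sisters differed by a median ratio of 2.07. With a pseudocount of 5 the same number, 4, passed. The labels give sister blastomeres consecutive positions on the same plate, so embryo and position cannot be told apart here.

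**Figure D3:**
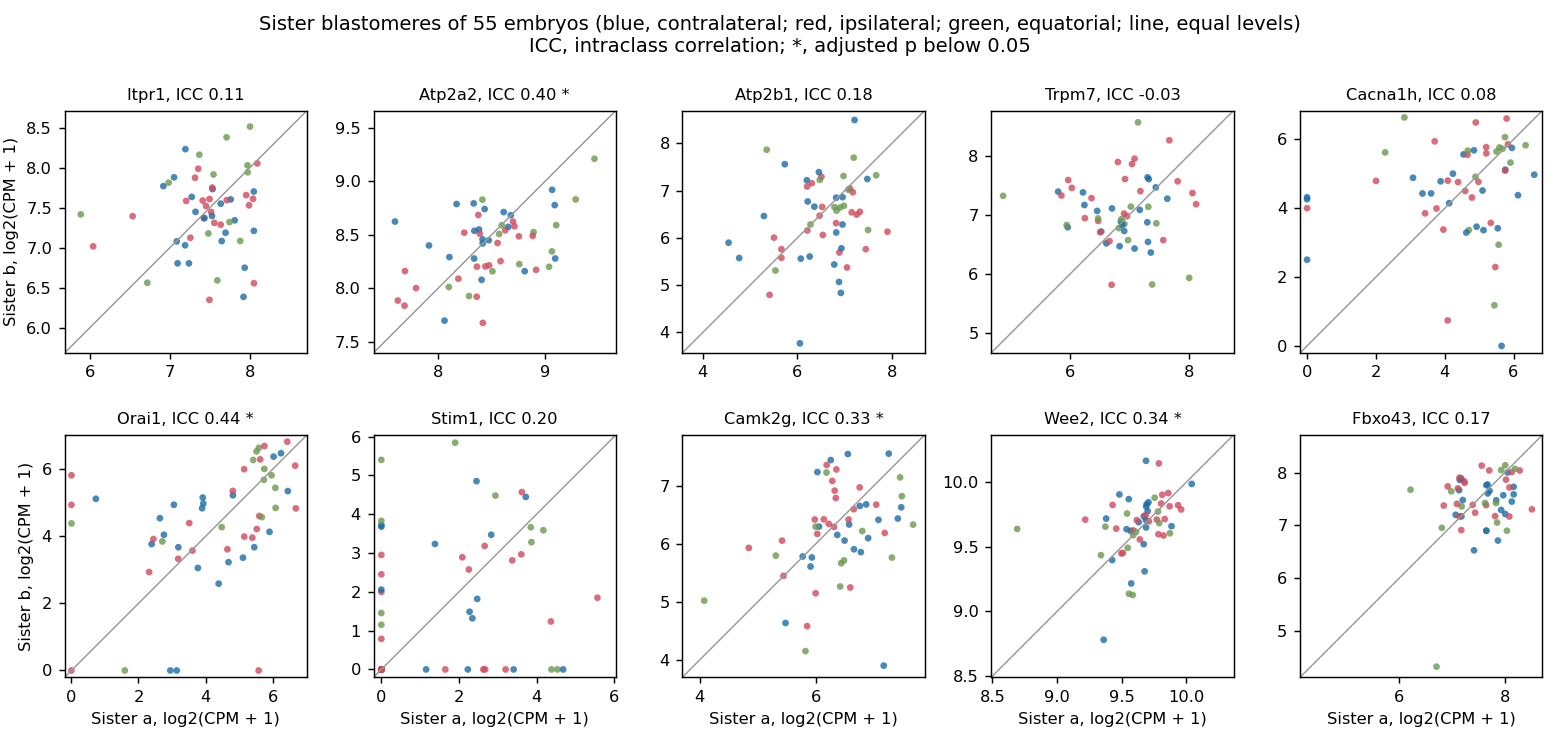
Level in one sister against the other for each gene, as log2(CPM + 1), with 1 point per embryo coloured by site, the line of equal levels, and the intraclass correlation (ICC). Each gene has its own axis range, narrow for Wee2, and Stim1 points lie along both axes, since 21 pairs have a read in only 1 sister.

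Levels of the 10 genes across the 55 embryos, after the means of site and plate were removed, had Spearman correlations from −0.40 (Atp2a2 with Orai1) to 0.51 (Atp2a2 with Atp2b1) over 45 pairs of genes, with a median of 0.06. The points share library depth. Over all genes the most alike were Ptpn1 for Orai1 (0.77), Gm1965 for Wee2 (0.72), Camsap2 for Atp2a2 (0.70), 2700054A10Rik for Fbxo43 (0.69), Plce1 for Camk2g (0.64), Kmt2d for both Atp2b1 (0.67) and Cacna1h (0.64), Sap25 for Stim1 (0.54) and Tbc1d8 for Trpm7 (0.48). Each was picked as the highest over the tested genes and is given as a description.

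Stage was the larger difference. Comparing 31 intact blastocysts with the 55 2-cell embryos, edgeR called 9 of the 10 genes, 6 lower and 3 higher, where 84.9% of all genes were called, 49.1% lower and 35.7% higher, and the median of all genes was −0.43 on the log2 scale. Levels are relative to the other RNA of a library, so a rise or fall is not an amount per embryo. By DESeq2 the median of all genes was 0.50, so the size of small changes relative to other genes depends on the method. The 2-cell libraries came from 2 plates and the blastocysts from 1 of these.

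The maternal genes of meiotic exit were nearly absent from blastocysts. Wee2 had 1 read in all 31 intact blastocysts together, against 119559 reads in 2-cell embryos, so its pooled CPM was 17950 times lower (exact Poisson 95% interval 3222 to 708995). In the 19 twin pairs it had no read, at least 11801-fold lower at a floor of 3 counts over the group. Fbxo43 also had 1 read in intact blastocysts, a ratio of 4276 (767 to 168895), and 12 reads in twins, a ratio of 703 (402 to 1360). These intervals cover counting error only. Intact and 2-cell embryos did not overlap for either gene. The share of all genes without overlap was not counted, and 84.9% of all genes were called between these groups.
Cacna1h had 8 reads in 5 of 31 intact blastocysts and 12 in 4 of 19 twin pairs, pooled ratios to 2-cell embryos of 87.2 (44.3 to 202) and 114.6 (65.6 to 222), and its groups overlapped at the few highest blastocysts and lowest 2-cell embryos.

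Itpr1 went from 87.9 to 308 CPM in 2-cell embryos (median 178) to 0 to 34.1 CPM in intact blastocysts (median 3.59), with no overlap and a log2 fold change of −5.38 (SE 0.21, adjusted p = 6.46e-43). Camk2g went from a median of 83.3 CPM (24.8 to 169) to 12.4 CPM (0 to 37.96), a log2 fold change of −2.84 (SE 0.22, adjusted p = 3.34e-22), and 24 of 31 intact blastocysts lay under every 2-cell embryo. Atp2a2 went from a median of 359.8 CPM (216 to 624.5) to 157 CPM (12.8 to 262), a log2 fold change of −1.48 (SE 0.11, adjusted p = 2.43e-23). All 31 intact blastocysts lay under the 2-cell median for each of these 3 genes. The share of all genes separated in these ways was not counted.

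Stim1 moved the other way. It had a median of 3.11 CPM (0 to 29.96) in 2-cell embryos and 43.5 CPM (4.27 to 113.5) in intact blastocysts, a log2 fold change of 2.75 (SE 0.39, adjusted p = 6.00e-10), with 23 of 31 intact blastocysts above every 2-cell embryo. The share of all genes separated in this way was not counted. Atp2b1 rose from a median of 102.1 CPM (34.4 to 265) to 172 CPM (74.9 to 406), a log2 fold change of 0.51 (SE 0.14, adjusted p = 0.000404). With depth as a covariate the Atp2b1 value was −0.43 and the call was lost (adjusted p = 0.171). Every intact blastocyst had a lower total than every 2-cell embryo, so fits with this covariate cannot separate depth from stage.
Trpm7 went from a median of 119.6 CPM (85.01 to 277) to 185 CPM (59.01 to 417), with a log2 fold change of 0.23 (SE 0.11, adjusted p = 0.0456), and its call was lost in plate 2 alone (0.14, adjusted p = 0.513). Orai1 had medians of 24.6 CPM (0 to 101.5) and 27.75 CPM (0 to 144) and did not pass (log2 fold change −0.32, 95% interval −0.87 to 0.23, adjusted p = 0.285), while with depth as a covariate it came to −1.48 and passed (adjusted p = 0.0385).

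**Figure D4:**
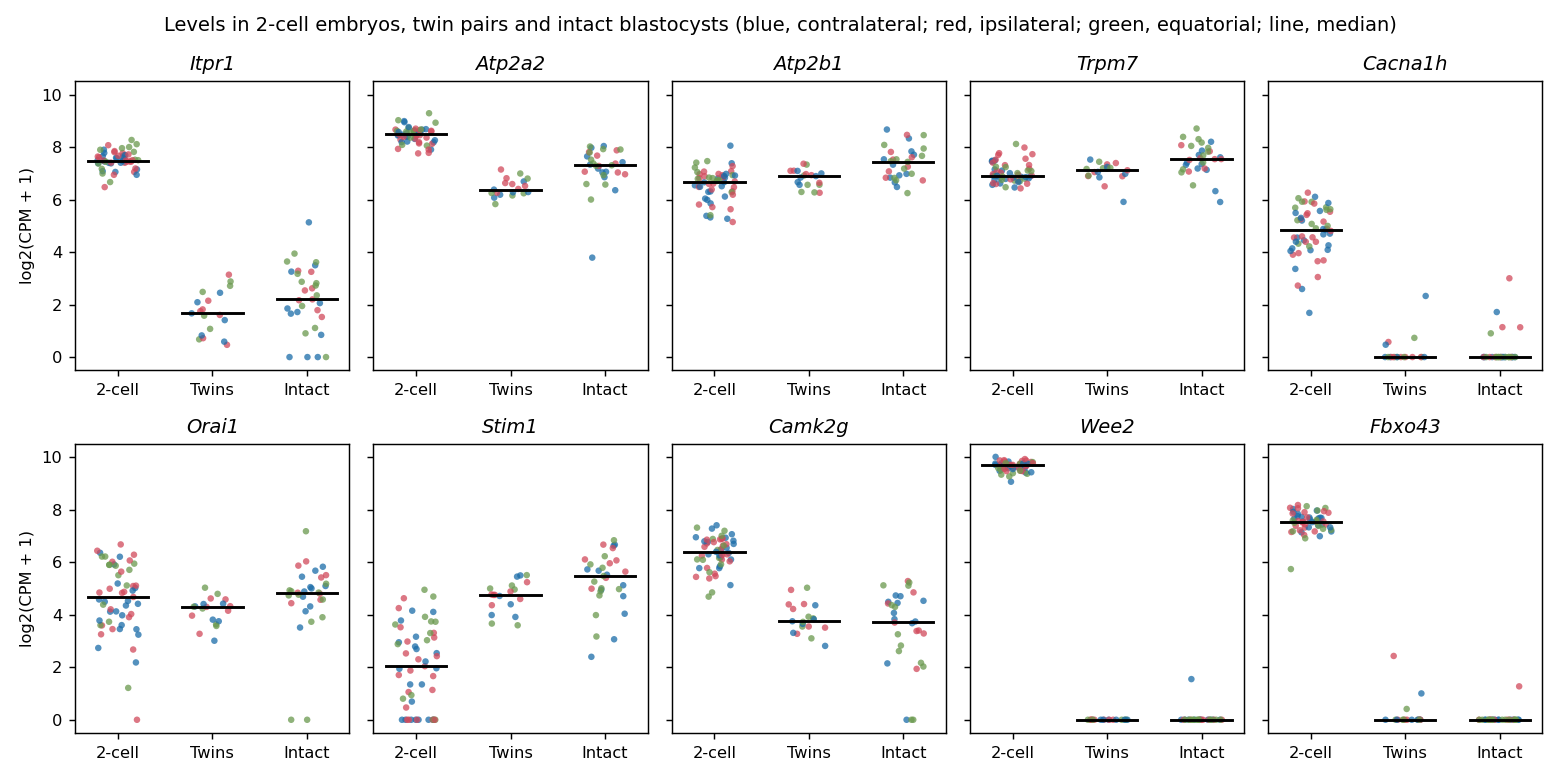
CPM of the 10 genes in 2-cell embryos, twin pairs and intact blastocysts on a log2(CPM + 1) axis, 1 point per embryo or pair with a line at the median. Wee2 and Fbxo43 drop to 0 in nearly all blastocysts, Itpr1 does not overlap between stages, and Stim1 rises.

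The order of the genes in TPM changed with stage. In intact blastocysts Atp2a2 was highest (median 75.03 TPM) and lay above Trpm7 (49.5 TPM) in 27 of 31. Trpm7, Orai1 (34.7 TPM) and Atp2b1 (32.1 TPM) were less well separated, each above the next in 21 of 31, and Stim1 (12.2 TPM) was above Camk2g (5.8 TPM) in 23. Itpr1 was at 0.606 TPM, and Cacna1h, Wee2 and Fbxo43 at 0.

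The rest of the pathway was divided. Of 64 tested genes in the 8 lists, 29 were higher and 23 lower in intact blastocysts, with a median log2 fold change of 0.26, beside 35.7% and 49.1% of all genes and a median of −0.43. The luminal calcium-binding proteins had 4 of 6 higher and 1 lower, calmodulin, kinases and calcineurin 7 of 11 higher and 1 lower, and meiotic exit and Cdk1 control 2 of 12 higher and 8 lower. Entry channels and sensors had 4 of 8 higher and 1 lower, the mitochondrial uniporter 4 of 7 higher and 3 lower, pumps and exchangers 2 of 5 in each direction, release channels 1 of 4 higher and 2 lower, and phospholipase C and IP3 metabolism 5 of 11 in each direction.
The 3 genes with the smallest adjusted p among those that rose were Smdt1, a small subunit of the mitochondrial uniporter (median 62.9 to 312 CPM, log2 fold change 1.93, SE 0.11), Canx (313 to 809 CPM, 1.10, SE 0.07), and Plcd1, a phospholipase C (0 to 92.9 CPM, above 0 in all 31 intact blastocysts). Those that fell were Mcu, the pore of the uniporter (296 to 19.7 CPM, log2 fold change −4.15, SE 0.17), Plcb1, another phospholipase C (35.5 to 0 CPM), and Mcub, which had no read in any intact blastocyst, at least 409-fold lower at a floor of 3 counts over the group.

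**Figure D5:**
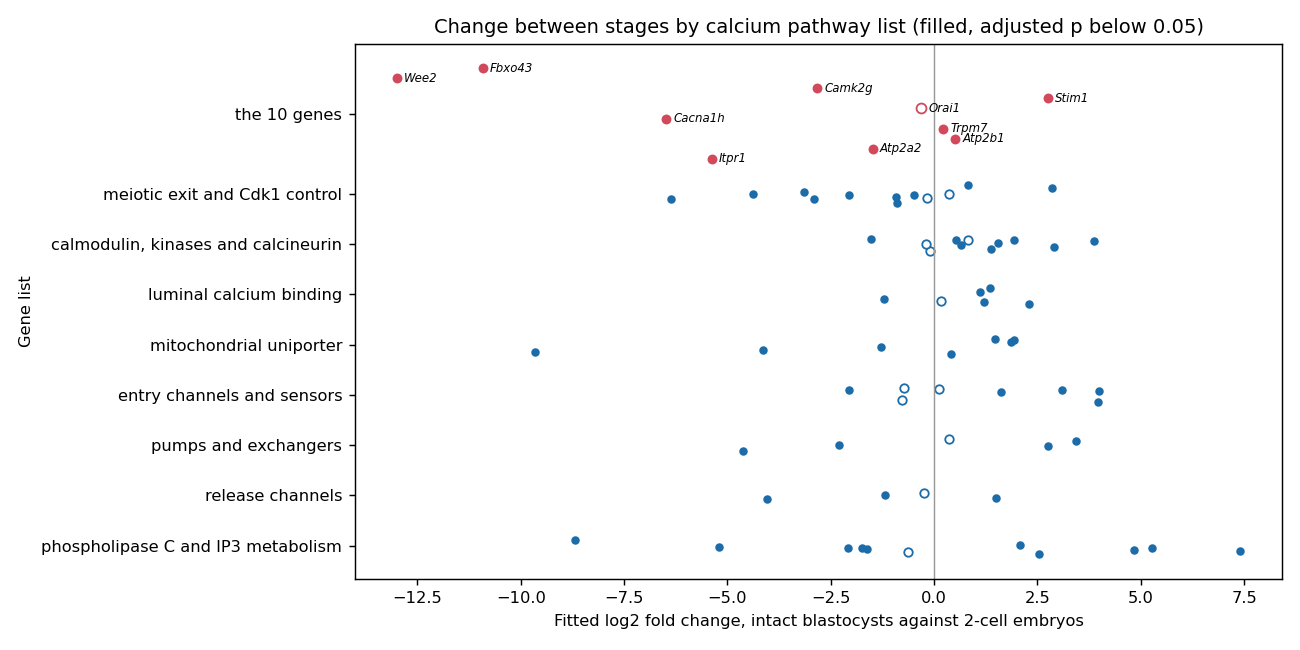
Log2 fold change of intact blastocysts against 2-cell embryos for the 10 genes (red) and the 8 pathway lists (blue), filled where the adjusted p was under 0.05. The 10 genes run from Wee2 to Stim1, and the fitted values of genes with almost no reads at one stage depend on the prior count and are no measure of size.

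In blastocysts the site of injection was compared again for the 6 genes with enough reads, Atp2a2, Atp2b1, Trpm7, Orai1, Stim1 and Camk2g. edgeR called 0 of 6 in twins and 0 of 6 in intact blastocysts in each of the 3 comparisons, with 0% of all genes called in each, and DESeq2 called 0 as well. At an unadjusted p under 0.05 there was 1, Trpm7 in contralateral against equatorial intact blastocysts (medians 162 and 238 CPM, log2 fold change −0.47, SE 0.22, adjusted p = 0.703). Atp2a2 had medians of 76.8, 95.4 and 74.8 CPM in contralateral, ipsilateral and equatorial twins, and 144, 159.5 and 161 CPM in intact blastocysts, with overlapping ranges. For ipsilateral against equatorial embryos its log2 fold change was 0.22 (−0.14 to 0.57) in twins and −0.02 (−0.58 to 0.53) in intact blastocysts. Whether these differ from the 2-cell value was not tested.

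Twin blastocysts carried lower levels than intact ones for most of the 6 genes. Atp2a2 ran from 55.8 to 140.5 CPM in the 19 twin pairs (median 82.2) against 12.8 to 262 CPM in intact blastocysts (median 157), a log2 fold change of −0.99 (SE 0.16, adjusted p = 8.87e-07). Trpm7 had medians of 138 and 185 CPM (−0.64, SE 0.14, adjusted p = 0.000108), and Atp2b1 117.9 and 172 CPM (−0.80, SE 0.16, adjusted p = 6.19e-05). All 19 twin pairs lay under the intact median for these 3 genes, though the ranges overlapped. The share of all genes placed this way was not counted, for these or for the genes below.
Orai1 had 18.7 and 27.75 CPM (−1.002, SE 0.30, adjusted p = 0.00505), with 18 of 19 twin pairs under the intact median, and Stim1 26.05 and 43.5 CPM (−0.96, SE 0.25, adjusted p = 0.00118), with 17 of 19. Camk2g, at 12.5 and 12.4 CPM, did not pass (−0.15, 95% interval −0.80 to 0.49). So 5 of the 6 were called lower, where 42.3% of all genes were called and 21.9% lower, with a median of −0.01 on the log2 scale over all genes.
Depth separates the kinds: all twin pairs had higher totals than all intact blastocysts, and single twin libraries were also deeper, with a median of 1093478 against 705837 counts. With depth as a covariate 2 of the 5 stayed called, Atp2a2 and Trpm7, while Atp2b1 came to −0.03, Orai1 to 0.17 and Stim1 to −1.05 (adjusted p = 0.959, 0.873 and 0.143). With 1 twin of each pair all 5 stayed called. The 6 oocyte and 2-cell markers summed to 330 to 683 CPM in twin pairs and 0 to 403 CPM in intact blastocysts. Only 1 of them, Dppa3, had enough reads to be tested, and it was called higher in twins (log2 fold change 2.79). The other 5 were at a median of 0 in intact blastocysts, and Bmp15, Oosp1 and Nlrp5 also in twins. The part of these markers in the differences above was not tested.

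Between twins of a pair, the median absolute log2 ratio over 19 pairs was 0.27 for Atp2a2, 0.38 for Stim1, 0.40 for Atp2b1, 0.42 for Trpm7, 0.76 for Orai1 and 0.84 for Camk2g, beside 0.52 over all 10995 genes. Set beside the values of sister blastomeres, Atp2a2 was at 0.27 in both, and no difference between stages was tested. The intraclass correlation of twins was highest for Stim1 (0.57, adjusted p = 0.177), and 0 of 6 genes passed (1 at an unadjusted p under 0.05), where 0.682% of all genes did.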

How the data were processed

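Single blastomeres and whole blastocysts were sequenced as full-length cDNA without molecular identifiers. Blastomere libraries came from a paired-end and a single-end dataset, and blastocyst libraries were single-end only, so layout also differed between stages. Layout was not a separate term in any fit. The authors kept 100 bases of the first read from the paired-end dataset. They trimmed reads, aligned them without strand to GRCm38 with GENCODE M23, and deposited raw counts per gene, whole numbers without normalization. The submitters' processing notes name FastQC 0.12.1, Trimmomatic 039 and STAR 2.7.10b. Groups came from the labels. The study's minimum of 9500 detected genes per blastomere (4000 per blastocyst) left 55 of 62 blastomere pairs, 19 twin pairs and 31 intact blastocysts. Of 125 blastomeres, 7 were under the minimum, and 25 blastomeres the labels list were not analysed here.

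Library totals were 360474 to 2100561 counts in blastomeres, 713410 to 2161062 in twins and 234099 to 1254428 in intact blastocysts. The embryo was the replicate, with sister or twin counts added. CPM used library totals, and TPM the exonic union length in GENCODE M21, an earlier release than the authors used. Levels were compared with edgeR's quasi-likelihood test (TMM, filterByExpr, robust, plate as a covariate at the 2-cell stage, site as a covariate between stages and kinds), sister spread with limma on the absolute difference of log2(CPM + 1), and sisters with other embryos by an F test. All tests were 2-sided except the F test, with Benjamini-Hochberg adjustment over all genes tested and a threshold of 0.05. Standard errors of edgeR log2 fold changes were worked out from the F statistic, and 95% intervals from these errors on a normal scale. The edgeR fits were tested on simulated counts. The sister spread and F tests were tested on simulated normal values only, which lack counting error and reads of 0. Genes with few reads over a group were given by the ratio of pooled CPM with its exact Poisson interval at 95%, and those with no read by a bound at a floor of 3 counts. Alternatives were RLE factors, no filter, no plate term, plate 1 or plate 2 alone, a depth covariate, pairs with at most 2% mitochondrial counts, all pairs, DESeq2, a rank-sum test on CPM, a pseudocount of 5 and, added after seeing the data, 1 twin of each pair.

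The 10 genes, the pathway lists (phospholipase C and IP3 metabolism, release channels, pumps and exchangers, entry channels and sensors, mitochondrial uniporter, luminal calcium binding, calmodulin with kinases and calcineurin, meiotic exit and Cdk1 control) and the marker lists were chosen with earlier results of these data known. Named beside the 10 are at most 3 list genes with the smallest adjusted p per comparison (in each direction between stages) and the gene most correlated with each, of which 1 is not reported here. Models ran in R 4.3.3 (DESeq2 1.42.0, edgeR 4.0.16, limma 3.58.1) and summaries in pandas 2.3.3, matplotlib 3.10.9, scipy 1.17.1 and numpy 2.4.6 under Python 3.11.15, with the random seed 20241115.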

Additional observations from a re-analysis of the deposited data

Results flagged for a closer look

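Among 36 tests of the highest and the lowest embryo within groups of 4 to 10 blastocysts or pairs, 10 values stood apart from the rest of their group, where chance gives about 1 in 20 groups. Of these, 8 were in Cacna1h and Fbxo43, whose groups were at or near 0, so that a few reads set the value. Cacna1h reached 4.02 CPM in 1 contralateral twin pair (8 reads), 0.49 CPM in 1 ipsilateral pair (1 read), 0.661 CPM in 1 equatorial pair (2 reads) and 7.01 CPM in 1 ipsilateral intact blastocyst (4 reads). Fbxo43 reached 1 CPM in 1 contralateral twin pair (2 reads), 4.39 CPM in 1 ipsilateral pair (9 reads), 0.33 CPM in 1 equatorial pair (1 read) and 1.42 CPM in 1 ipsilateral intact blastocyst (1 read). Itpr1 was at 7.81 CPM in 1 ipsilateral twin pair (16 reads), next to 3.43 CPM in the second highest and a median of 2.36. Camk2g was at 31.7 CPM in 1 equatorial twin pair (86 reads), next to 14.2 CPM in the second highest and a median of 12.9.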

How the results depend on the processing

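The call of 1 gene between ipsilateral and equatorial 2-cell embryos (Atp2a2) became 0 genes with RLE factors, in plate 1 alone, with a depth covariate, under the mitochondrial limit and by the rank-sum test, and the 5 calls between twin and intact blastocysts became 2 with a depth covariate. The cause was not tested. Counts of the 10 genes called in the other comparisons stayed within 1.5 times, from 7 to 9 between stages and at 0 between sites. Of the values of single genes under an alternative, 534 kept direction and side of the threshold, 8 lost the call in the same direction, 1 gained it and 20 changed direction. Among those 20, Orai1 in twin against intact blastocysts and Atp2b1 between stages also lost the call. The gain was Orai1 between stages with depth (−1.48, adjusted p = 0.0385). Changes of direction with depth as a covariate were Atp2b1 in ipsilateral against equatorial embryos (0.0496), Orai1 in twin against intact blastocysts (0.17), Atp2b1 between stages (−0.43) and, in sister spread, Wee2 in contralateral (0.0157) and Cacna1h in ipsilateral (0.25) against equatorial pairs. In plate 1 alone they were Itpr1 (0.0725) and Fbxo43 (0.0448) in contralateral against ipsilateral embryos and, in sister spread, Wee2 in contralateral against equatorial (0.00583), Itpr1 (0.0351), Trpm7 (0.15) and Cacna1h (0.26) in ipsilateral against equatorial, and Itpr1 (−0.0466) and Atp2a2 (−0.000819) in contralateral against ipsilateral pairs. The others were Camk2g in ipsilateral against equatorial embryos (0.0108 with all pairs, 0.0721 by ranks), and in contralateral against ipsilateral embryos Itpr1 (0.0387) and Cacna1h (0.0416) under the mitochondrial limit, Atp2b1 without a plate term (0.00669), Fbxo43 with all pairs (0.0122) and, in intact blastocysts, Camk2g by DESeq2 (−0.00412). DESeq2 moved the median of all genes from −0.43 to 0.50 between stages and from −0.01 to −0.42 between twin and intact blastocysts. It was run without a filter, but edgeR without a filter gave medians of −0.47 and 0.05. With a depth covariate these medians were −0.22 and −0.14. No paired analysis was possible because embryos of different sites are different individuals whose numbers are not shared. Depth limited Stim1 and Orai1 most, with medians of 9 and 70 reads per 2-cell embryo.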

Other observations

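Related genes of the same families were looked at after the values of the 10 genes were known, and were chosen after their own values were seen. Among IP3 receptors, Itpr2 went from a median of 106.4 CPM (58.6 to 227) in 2-cell embryos to 1.87 CPM (0 to 105.4) in intact blastocysts (log2 fold change −4.05), while Itpr3 went from 2.11 CPM (0 to 29.9) to 12.8 CPM (0 to 82.8) (log2 fold change 1.49), both past the threshold. Among CaMKII subunits, Camk2d went from 0.846 CPM (0 to 24.9) to 70.5 CPM (0.871 to 126.2), a log2 fold change of 3.87, and Camk2b from 0 CPM (0 to 21.1) to 10.4 CPM (0 to 53.3). Camk2g had gone the other way, from 83.3 to 12.4 CPM. Wee1, the somatic counterpart of Wee2, had medians of 36.7 CPM (7.45 to 82.6) and 41.2 CPM (4.36 to 115.6) at these stages, and did not pass. Fbxo5, the Emi1 counterpart of Fbxo43, went from 158 CPM (62.2 to 295) to 23.3 CPM (0 to 61.95).

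In twin against intact blastocysts, 8 of the 48 tested pathway genes were higher and 14 lower, where 42.3% of all genes were called and 21.9% were lower. The list of meiotic exit and Cdk1 control had 7 of 11 genes higher and 0 lower, with a median log2 fold change of 0.87 beside −0.01 over all genes. Cdc20, an activator of the anaphase-promoting complex, was at 297 CPM (218 to 379) in twin pairs and 116.996 CPM (14.8 to 222) in intact blastocysts, with a log2 fold change of 1.33 (SE 0.13). The luminal calcium-binding proteins had 4 of 6 lower and 0 higher, among them Hspa5 (−1.30, SE 0.14). Depth differed between these kinds of blastocyst in the same embryos.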
